A study of Bos taurus with 138 samples.

Results

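Interferon-stimulated genes, which cells switch on in response to interferon, were followed from the immature bovine oocyte to the blastocyst. The genes were ISG15, IFI6, MX1, MX2, OAS1X, OAS2, RSAD2, IFIT2 and IRF1. They were listed by name, with no threshold on a measured value but with earlier results of these data known, and make up 9 of the 16706 gene symbols in the deposited table. All 9 passed the filter on low counts, as did 14612 symbols in all.

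Interferons are secreted signals of the antiviral response. Type I interferons bind a receptor made of IFNAR1 and IFNAR2, whose kinases JAK1 and TYK2 phosphorylate STAT proteins. With IRF9, these enter the nucleus and bind the promoters of interferon-stimulated genes, while proteins such as SOCS1 and USP18 damp the signal. In cattle, interferon tau from the trophectoderm is the signal by which the conceptus is recognised by the mother, and interferon-stimulated genes of the endometrium and of blood cells are its best known targets.

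The samples were Bos taurus oocytes with an intact germinal vesicle (GV) or arrested in the second metaphase (MII), and embryos, fertilised and cultured in vitro, of the 2-cell, 8-cell, morula and blastocyst stages. GV oocytes came from slaughterhouse ovaries, MII oocytes were matured in vitro and stripped of their cumulus cells, semen of 1 bull was used, and the zona pellucida was removed with protease before freezing. All were held in cycloheximide, which stalls ribosomes on mRNA, before collection for the gradients. At each stage, lysates were spread on 2 sucrose gradients (A and B) and cut into 10 fractions, F1 (lightest) to F10 (heaviest), and the transcriptome of pooled whole oocytes or embryos was sequenced in 3 replicates (A, B and C).

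These made 120 fraction libraries and 18 transcriptomes. Fraction libraries held 1229382 to 17342859 counts and transcriptomes 3269386 to 11812567. Counts of F8, F9 and F10, which the study regards as polysomes, were summed within each gradient into 12 polysome pools of 22543737 to 39380638 counts. The stages carried their own markers. In GV and MII transcriptomes, summed levels of 8 oocyte genes such as ZP2 and GDF9 were 17903 to 21106 CPM. They were at most 129 CPM in morula and blastocyst transcriptomes. Those of 6 trophectoderm genes were 5402 to 6309 CPM in blastocyst transcriptomes and at most 480.3 CPM in earlier ones. In morula pools the oocyte sum was 124 and 511 CPM and the trophectoderm sum 2090.1 and 4987 CPM.

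Levels are counts per 1000000 counts of the library (CPM), scaled with edgeR's TMM factors. CPM is a share of the RNA sequenced, so a lower level with fewer cells and less RNA per cell cannot be told apart, nor can a level in polysomes be read as the number of molecules there. Tests were two-sided edgeR quasi-likelihood tests with p-values adjusted over all 14612 genes. A change between stages was called at an adjusted p below 0.05 and more than 2-fold, and a difference between polysomes and transcriptome at an adjusted p below 0.05. Where a whole group held no count, the fold change is a lower bound against a floor of 3 counts per library ("at least"). Where a group held 1 to 3 counts, the ratio of levels is given with its 95% counting interval.

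In the transcriptome, 5 of the 9 genes reached their highest mean at the 8-cell stage (ISG15, IFI6, MX1, OAS1X and MX2), RSAD2 was highest in MII oocytes, OAS2 and IRF1 in GV oocytes and IFIT2 in 2-cell embryos. In GV transcriptomes 5 of the 9 had a count, and at each later stage all 9. In polysome pools 4 were highest at the 8-cell stage. MX2 had no count in any of the 12 pools. The summed level of the 9 genes was 29.3 to 37.7 CPM at GV and 67.4 to 254 CPM at MII. It was 26.3 to 30.8 CPM at 2-cell and 1188 to 2439.6 CPM at 8-cell. Morulae held 11.4 to 47.4 CPM and blastocysts 9.12 to 16.8 CPM. The same sum in polysome pools was 46.0 to 164 CPM at every stage except the 8-cell stage, where it was 957 and 1072. There were thus 2 rises in the transcriptome, one during maturation and a larger one at the 8-cell stage, with a fall after each. Single genes carried much of these sums. IFI6, with a mean of 1279.6 CPM, made up most of the 8-cell transcriptome sum. IRF1 made up most of the pool sums in GV oocytes, 2-cell embryos, morulae and blastocysts, with means of 69.6, 92.4, 83.5 and 104 CPM.

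**Figure D1:**
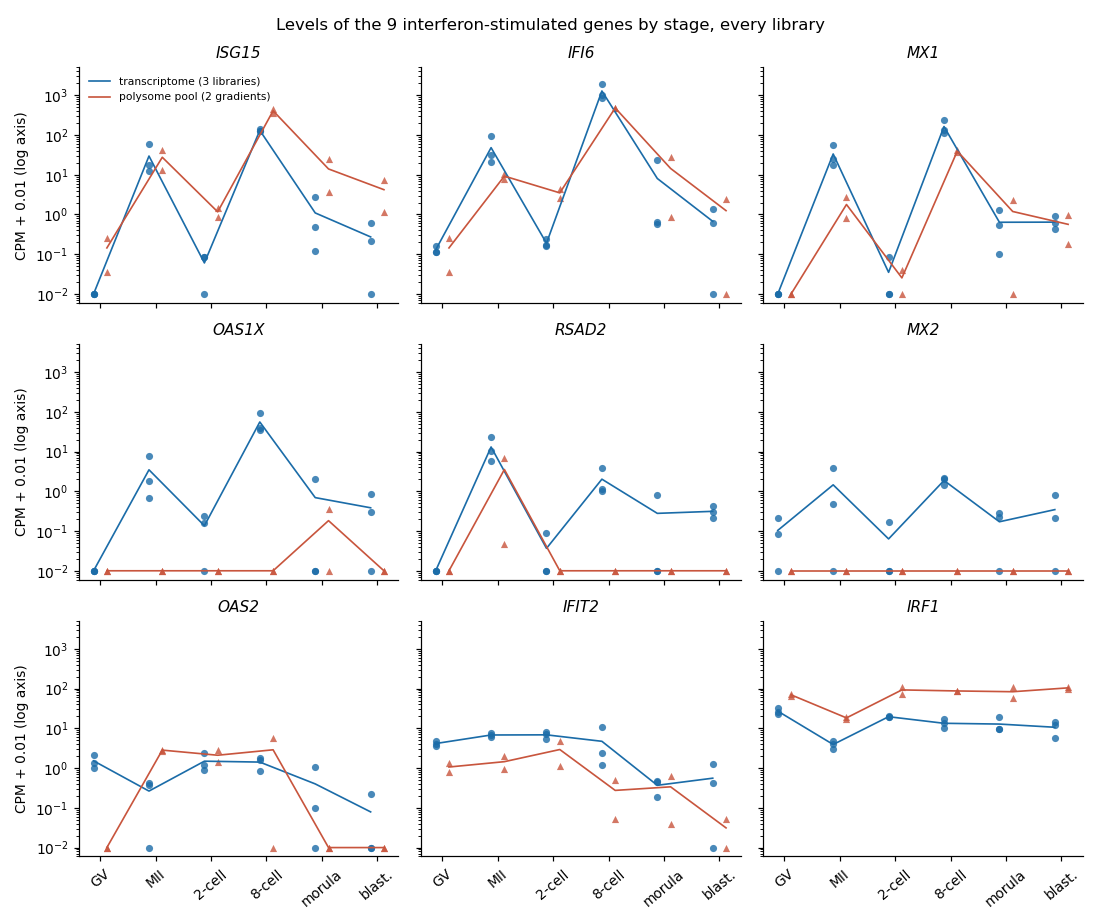
Level of each of the 9 genes in every library by stage (CPM + 0.01, log axis), with transcriptomes as blue circles, polysome pools as red triangles and lines through the means. ISG15, IFI6, MX1 and OAS1X peak at the 8-cell stage in the transcriptome, and the OAS1X, RSAD2 and MX2 pools lie at 0 there.

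Counted gene by gene, 5 genes rose from GV to MII in the transcriptome (ISG15, OAS1X, MX1, RSAD2 and IFI6) and 1, IRF1, fell, where 6.61% of all genes rose and 10.5% fell. Then 4 fell (ISG15, MX1, RSAD2 and IFI6) and IRF1 rose from MII to the 2-cell stage, beside 5.96% falling and 6.0% rising over all genes. At the next step to the 8-cell stage 6 rose (those 4, OAS1X and MX2) and none fell, beside 26.6% and 23.5% of all genes. From 8-cell to morula, 5 fell (ISG15, OAS1X, MX1, IFI6 and IFIT2) and none rose, beside 7.75% and 6.60%. To the blastocyst the edgeR test called 0 of the 9, while 10.2% of all genes rose and 11.4% fell. IFI6 had an unadjusted p below 0.05 there, and the likelihood ratio test and DESeq2 each called 1 gene. The median log2 change of the 9 genes was 5.94 from 2-cell to 8-cell and -3.70 from 8-cell to morula, beside 0.03 and -0.05 over all genes. From GV to MII it was 8.55 as fitted and 3.87 with empty groups set at their bound, beside 0.0 over all genes. Consecutive changes share a stage, so they are not independent.

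Changes were called between polysome pools as well. From GV to MII, 5 genes rose (ISG15, OAS2, MX1, RSAD2 and IFI6) and IRF1 fell, where 3.03% of all genes rose and 2.33% fell. To the 2-cell stage 3 fell (ISG15, MX1 and RSAD2) and IRF1 rose, beside 5.14% and 3.37%. To the 8-cell stage 3 rose (ISG15, MX1 and IFI6) and IFIT2 fell, beside 21.0% rising and 25.2% falling over all genes. To the morula 4 fell (ISG15, OAS2, MX1 and IFI6) and none rose, beside 17.7% and 18.5%. To the blastocyst edgeR called 0 of 9, where 5.79% of all genes rose and 8.13% fell. There 2 genes (IFI6 and IFIT2) had an unadjusted p below 0.05, and the likelihood ratio test and DESeq2 called none. Without transcriptome C, 1 of the 6 calls from GV to MII (ISG15) and 1 of the 4 to the 2-cell stage (IRF1) were left. In both 2-cell and 8-cell pools OAS1X, MX2 and RSAD2 had no count and entered the fit at 0.0, which sets the median change of the 9 genes at 0.0, beside -0.26 over all genes.

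Whether polysomes and transcriptome changed unequally was tested as the difference of both changes. It was called for 1 gene from GV to MII (OAS2, higher, beside 7.14% of all genes higher and 3.50% lower) and for 1 from 8-cell to morula (OAS1X, higher, beside 7.06% and 5.41%). It was called for 0 of the 9 from MII to 2-cell (0.725% higher and 1.08% lower over all genes), 0 on to the 8-cell stage (3.45% and 8.72%) and 0 from morula to blastocyst (6.04% and 6.24%). Unadjusted p-values below 0.05 were reached by 2 genes in the first of these (ISG15 and IFI6), 1 in the second (IFI6) and 1 in the last (IFIT2). The likelihood ratio test and DESeq2 each called 1 gene in the first, 1 in the second and 0 in the last. On simulated data the 2-cell to 8-cell test of the difference recovered 4% of differences of 2 and 69% of 4 on the log2 scale. Of its calls 9.88% were false. A difference that was not called therefore does not show equal changes.

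Within a stage, polysomes differed from the transcriptome for 2 to 5 of the 9 genes. In GV oocytes IRF1 was higher and OAS2 lower, beside 22.2% and 17.7% of all genes, and in MII oocytes IRF1 was higher and OAS1X, MX1 and MX2 lower, beside 30.8% and 26.7%. The 2-cell embryo had 3 higher (ISG15, IFI6 and IRF1) and none lower, beside 29.1% and 21.9%. The 8-cell embryo had 1 higher (IRF1) and 4 lower (OAS1X, MX2, RSAD2 and IFIT2), beside 28.0% and 31.0%. In morulae ISG15 and IRF1 were higher and OAS2 lower, beside 26.5% and 25.2%, and in blastocysts ISG15 and IRF1 were higher and IFIT2 lower, beside 20.0% and 20.1%. These counts were near the shares over all genes. Directions differed by gene, with IRF1 higher in polysomes at each of the 6 stages and ISG15 at 3. The calls of OAS1X, OAS2, MX1, MX2, RSAD2 and IFIT2 were all lower. The median log2 difference of the 9 genes in 8-cell embryos was -2.06, beside -0.26 over all genes, a median that moved to -0.50 with another scaling.

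ISG15 encodes a ubiquitin-like protein that is conjugated to other proteins and also secreted. Its transcriptome level was 0 in all 3 GV replicates, 12.7, 57.9 and 18 CPM at MII, 0.0761, 0 and 0.0752 CPM at 2-cell and 123, 124 and 145 CPM at 8-cell. It was 0.467, 2.68 and 0.108 CPM in morulae and 0.588, 0 and 0.20 CPM in blastocysts. The 8-cell replicates, with a mean of 130.5 ± 12.3 CPM (SD, n = 3), lay above those of every other stage. From GV to MII the level rose at least 105-fold (adjusted p = 1.77e-05). The 2 counts left at the 2-cell stage made the fall a ratio of 575 (interval 159 to 4745, adjusted p = 6.53e-05) and the next rise a ratio of 2539.7 (703 to 20971, adjusted p = 6.47e-07). The fall to the morula was -6.87 on the log2 scale (SE 1.05, adjusted p = 0.000114).

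GV polysomes held ISG15 at 0.0252 and 0.243 CPM, MII polysomes at 13.0 and 42.0, 2-cell polysomes at 1.45 and 0.861 and 8-cell polysomes at 459 and 354 CPM. It was then 3.66 and 24.3 CPM in morulae and 1.17 and 7.23 CPM in blastocysts. All 4 changes up to the morula were called: log2 7.63 (SE 1.35, adjusted p = 0.00174), -4.56 (SE 1.13, adjusted p = 0.0139), 8.45 (SE 1.34, adjusted p = 3.17e-05) and -4.86 (SE 1.14, adjusted p = 0.00232). The second was lost without transcriptome C (adjusted p = 0.0507) and with F9 and F10 alone as polysomes (adjusted p = 0.0676). With only the groups compared in the fit the first, second and last were lost (adjusted p = 0.0675, 0.0509 and 0.21). ISG15 was higher in polysomes than in the transcriptome at the 2-cell stage (ratio 22.4, 6.21 to 185, adjusted p = 0.0132), in morulae (log2 3.65, SE 0.967, adjusted p = 0.00346, but 0.0662 with only the groups compared) and in blastocysts (ratio 18.5, 6.34 to 89.9, adjusted p = 0.0155). The blastocyst call was lost without gradient and transcriptome B (log2 1.68, adjusted p = 0.093) and without transcriptome C (log2 4.0, adjusted p = 0.0752). In 8-cell embryos both pools lay above all 3 transcriptomes, but the difference of 1.64 (SE 0.871) had an adjusted p of 0.109. In MII oocytes the values overlapped, with a difference of -0.10 (SE 0.887, adjusted p = 0.956).

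Along the 8-cell gradients ISG15 had counts in all 20 fraction libraries. Fraction levels were scaled with TMM factors of the single libraries, not of the pools. Gradient A went from 8.5 CPM in F4 to 621 in F8, 262 in F9 and 388 in F10. Gradient B went from 8.97 CPM in F3 to 358 in F8, 318 in F9 and 292 in F10. Both gradients were thus highest in F8 and lowest in F3 or F4. In MII oocytes its highest fraction was F10 in both gradients, at 15.5 and 85.3 CPM. Later pools, other than gradient B of morulae, rested mostly on 1 fraction. Gradient A held ISG15 in F8 alone of F8 to F10 in morulae (7.81 CPM) and in F9 alone in blastocysts (2.68 CPM). Gradient B of blastocysts held 17.8 CPM in F10. In gradient A, lighter fractions had the higher mean: 10.9 (F6 to F7) against 2.6 CPM in morulae and 4.99 (F3 to F5) against 0.895 CPM in blastocysts. In gradient B, F8 to F10 had the highest mean at both stages.

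IFI6 encodes a small membrane protein with antiviral activity. Its transcriptome level was 0.101 to 0.152 CPM at GV, 20.7, 92.0 and 31.3 CPM at MII, 0.152 to 0.226 CPM at 2-cell and 1958, 1039 and 842 CPM at 8-cell. In morulae it was 0.56, 22.9 and 0.646 CPM and in blastocysts 0.588, 0 and 1.40 CPM. Replicate B of the morula was thus far above the other 2. The 4 changes were log2 8.55 (SE 1.64, adjusted p = 0.000479), -8.01 (SE 1.55, adjusted p = 0.000878), 12.74 (SE 1.74, adjusted p = 1.84e-06) and -7.31 (SE 1.33, adjusted p = 0.000542).

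Polysome pools held IFI6 at 7.96 and 10.5 CPM at MII, 2.61 and 4.37 CPM at 2-cell and 487 and 470.0 CPM at 8-cell. In GV oocytes they held at most 0.243 CPM, in morulae 0.867 and 27.9 CPM and in blastocysts 2.48 and 0 CPM. The rise from 2-cell to 8-cell was 7.10 (SE 1.61, adjusted p = 0.00105), and at the 2-cell stage polysomes exceeded the transcriptome by 4.23 (SE 1.56, adjusted p = 0.0268), a call lost without transcriptome C (4.41, adjusted p = 0.0834). In 8-cell embryos both pools lay below all 3 transcriptomes, by -1.42 (SE 1.18), with an adjusted p of 0.304. The difference between its 2-cell to 8-cell changes in polysomes and transcriptome was -5.65 (SE 2.00, adjusted p = 0.0661). In 8-cell fractions IFI6 stayed at 0 to 77.4 CPM in F1 to F5 and reached 559.5 CPM in F10 of gradient A and 624 CPM in F8 of gradient B.

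**Figure D2:**
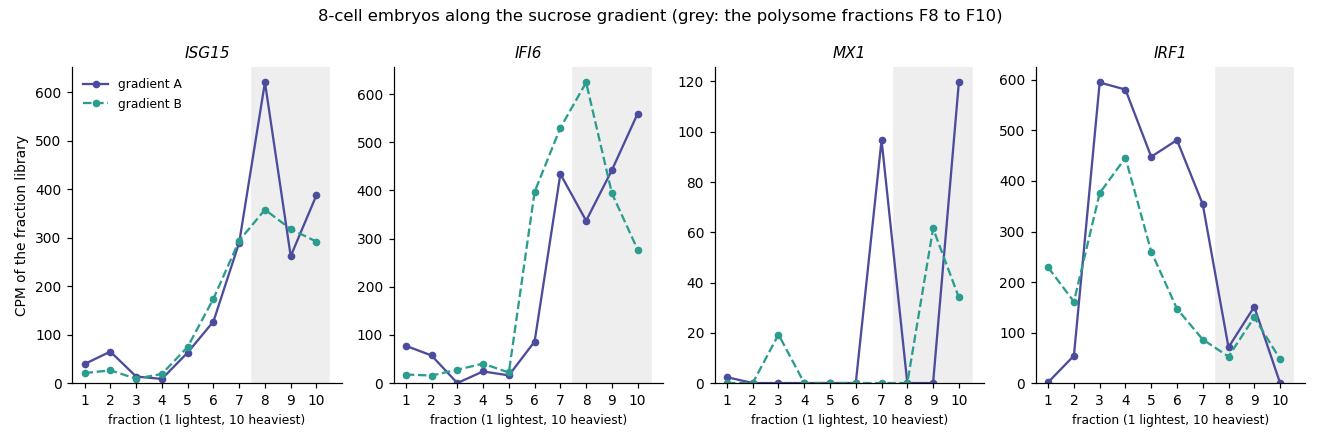
Level of ISG15, IFI6, MX1 and IRF1 in each fraction of the 2 gradients of 8-cell embryos (CPM of the fraction library, F1 lightest to F10 heaviest, grey for the pooled fractions F8 to F10). ISG15 and IFI6 are high from F7 on in both gradients, MX1 has counts in 6 of 20 libraries, and IRF1 is highest in F3 or F4.

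MX1 and MX2 encode dynamin-like GTPases that block viruses. MX1 was at 0 in all GV transcriptomes, 17.5, 57.3 and 25.1 CPM at MII, 0, 0 and 0.0752 CPM (1 count) at 2-cell and 244, 115 and 131 CPM at 8-cell. It fell to 0.0933, 1.25 and 0.539 CPM in morulae (log2 -8.00, SE 1.18, adjusted p = 9.10e-05). The rise during maturation was at least 119-fold (adjusted p = 2.44e-05), the fall to the 2-cell stage a ratio of 1296 (233 to 51202, adjusted p = 7.46e-05) and the rise to the 8-cell stage a ratio of 6359 (1141 to 251171, adjusted p = 9.24e-07).

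In polysome pools MX1 was at 0.828 and 2.72 CPM at MII, 0 and 0.0308 CPM at 2-cell, 40.8 and 37.8 CPM at 8-cell and 0 and 2.36 CPM at the morula stage. It rose from 2-cell to 8-cell (ratio 2689.5, 483 to 106229.9, adjusted p = 3.74e-05) and fell to the morula (log2 -5.01, SE 1.23, adjusted p = 0.00362). The call of that fall was lost with only the groups compared in the fit (log2 -5.08, adjusted p = 0.378). In MII oocytes MX1 was lower in polysomes than in the transcriptome, with no overlap (log2 -4.23, SE 1.16, adjusted p = 0.00384). The 8-cell pools again lay below all transcriptomes, but the difference of -2.06 (SE 1.02) had an adjusted p of 0.0876. Its 8-cell pools rested on few fractions. Gradient A held MX1 at 119.6 CPM in F10 and 0 in F8 and F9, and gradient B at 61.5 CPM in F9, 34.1 CPM in F10 and 0 in F8. Neighbouring fractions of 1 gradient thus differed widely, and the part of these gaps in the polysome levels was not tested.

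MX2 was low throughout. In the transcriptome it was at 2.06, 1.43 and 2.09 CPM in 8-cell embryos, 0, 3.85 and 0.476 CPM in MII oocytes and at most 0.80 CPM in any library of the other stages. The rise from 2-cell to 8-cell was a ratio of 36.2 (10.0 to 299, adjusted p = 0.0246). That call was lost with DESeq2 (adjusted p = 0.129) and without replicate C (log2 4.37, adjusted p = 0.196). With no count in the pools, MX2 was at least 18.2-fold lower in polysomes than in the transcriptome of 8-cell embryos (adjusted p = 0.00807). In MII oocytes it was at least 13.4-fold lower (adjusted p = 0.0106), where the groups overlapped at 0 and the call rested on replicate B (log2 -4.97, adjusted p = 0.127 without it). None of the 20 fraction libraries of 8-cell embryos held a count of MX2.

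OAS1X and OAS2 encode oligoadenylate synthetases that sense double-stranded RNA. OAS1X has near-identical copies, OAS1Y and OAS1Z, between which Salmon could have split reads, so its own level is uncertain. OAS1X was at 0 in GV transcriptomes, 0.687, 7.91 and 1.78 CPM at MII, at most 0.226 CPM at 2-cell and 93.1, 34.2 and 38.9 CPM at 8-cell. It was 0, 0 and 2.05 CPM in morulae. It rose at least 12.4-fold during maturation (adjusted p = 0.0138, and 0.0749 without replicate C), by 8.69 from 2-cell to 8-cell (SE 1.83, adjusted p = 0.000785) and changed by -6.37 to the morula (SE 1.62, adjusted p = 0.0123, but 0.10 with DESeq2).

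Polysome pools held no count of OAS1X at any stage but the morula, where gradient B had 12 counts (0.345 CPM). At the 8-cell stage it was therefore at least 542-fold lower in polysomes than in the transcriptome (adjusted p = 0.00063), and in MII oocytes at least 32.2-fold lower (adjusted p = 0.00575). Over all 20 fraction libraries of 8-cell embryos a single one, F4 of gradient B, held OAS1X, at 2 counts. The RNA seen in whole 8-cell embryos was thus near the floor along the whole gradient, not in the heavy fractions alone.

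OAS2 did not follow OAS1X. Its transcriptome values were 1.37, 2.15 and 1.01 CPM at GV, 0, 0.405 and 0.357 CPM at MII, 0.902 to 2.32 CPM in 2-cell and 0.857 to 1.79 CPM in 8-cell embryos, and no stage change was called. In polysomes it had no count in GV oocytes and 2.92 and 2.72 CPM in MII oocytes, a rise of at least 35.9-fold (adjusted p = 0.0303). This call was lost without transcriptome C (adjusted p = 0.115). In GV oocytes it was at least 19.3-fold lower in polysomes than in the transcriptome (adjusted p = 0.00811), and its counts there lay in F1 to F7, at 0.909 to 5.01 CPM where present, with 0 in F8 to F10 of both gradients. At the 8-cell stage gradient A held none and gradient B 5.75 CPM, so the later fall of at least 24.8-fold (adjusted p = 0.00834) rested on gradient B. Both morula pools were at 0, at least 3.36-fold below a transcriptome of 0, 0.0894 and 1.08 CPM (adjusted p = 0.0348), a call lost without replicate B (adjusted p = 0.0537) or C (adjusted p = 0.353).

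RSAD2 encodes viperin, a radical SAM enzyme that makes a chain-terminating nucleotide. It differed from the other responsive genes in being highest in MII oocytes, at 5.84, 23.1 and 10.1 CPM, against 1.03, 1.16 and 3.83 CPM in 8-cell embryos. Elsewhere it was at most 0.805 CPM. During maturation it rose at least 46.5-fold (adjusted p = 0.00333), fell by a ratio of 507 (91.0 to 20023, adjusted p = 0.0074) and rose by a ratio of 78.1 to the 8-cell stage (14.0 to 3085, adjusted p = 0.0141). All 3 calls were lost without replicate C, with adjusted p-values of 0.0805, 0.16 and 0.174. In polysomes RSAD2 was found in MII oocytes only, at 0.036 and 7.01 CPM, so that its rise of at least 44.9-fold (adjusted p = 0.0378) and fall of at least 40.1-fold (adjusted p = 0.03) rested on gradient B (log2 2.50 and -2.50, adjusted p = 0.536 and 0.54 without it). At the 8-cell stage it was at least 19.6-fold lower in polysomes (adjusted p = 0.00806), with no count in any of 20 fraction libraries.

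IFIT2 encodes an RNA-binding protein. It was present in GV oocytes, at 3.95, 3.59 and 4.86 CPM, and stayed at 5.49 to 7.91 CPM in MII oocytes and 2-cell embryos. The 8-cell values of 1.2, 2.42 and 10.5 CPM were the most spread, and the fall to 0.179 to 0.467 CPM in morulae (-3.70, SE 1.11, adjusted p = 0.0251) was lost without replicate C (-2.47, adjusted p = 0.464). Polysomes held 4.70 and 1.14 CPM in 2-cell and 0.041 and 0.488 CPM in 8-cell embryos, a change of -3.39 (SE 1.30, adjusted p = 0.0356) that was lost without gradient A (-1.21, adjusted p = 0.265) and without transcriptome C (adjusted p = 0.0929). IFIT2 was lower in polysomes than in the transcriptome of 8-cell embryos (-4.08, SE 1.31, adjusted p = 0.0102, but -2.74 and 0.147 without transcriptome C). It was also called lower in blastocysts (adjusted p = 0.0305), where the pools held 0 and 0.0426 CPM and the transcriptomes 0, 1.24 and 0.40 CPM. These were 1 and 8 counts, both under the floor, so no fold is given, and the call was lost without replicate B (adjusted p = 0.15) and without C (adjusted p = 0.0778).

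IRF1 is itself a transcription factor, induced most strongly by interferon gamma, that binds interferon-responsive promoters. During maturation its level fell, where 5 of the 9 genes rose. The transcriptome held 32.2, 23.3 and 25.8 CPM at GV, 4.01, 4.76 and 2.97 CPM at MII and 19.4, 20.1 and 19.3 CPM at 2-cell. The change of -2.79 on the log2 scale (SE 0.388, adjusted p = 9.62e-06) and that of 2.32 (SE 0.382, adjusted p = 0.000189) were both called, and no later change was. From the 8-cell stage on, values lay between 5.8 and 19.2 CPM and overlapped between neighbouring stages.

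The polysome pools moved alike, from 72.4 and 66.9 CPM at GV to 19.4 and 17.2 CPM at MII and 73.2 and 112 CPM at 2-cell (-1.93, SE 0.45, adjusted p = 0.0118, and 2.34, SE 0.456, adjusted p = 0.00241). The first of these was lost without transcriptome C (adjusted p = 0.0638). Later pools held 57.7 to 112 CPM. Pools lay above all transcriptomes at every stage, by log2 1.36 at GV (SE 0.392, adjusted p = 0.00755), 2.22 at MII (SE 0.405, adjusted p = 5.77e-05), 2.24 at 2-cell (SE 0.396, adjusted p = 5.00e-05), 2.70 at 8-cell (SE 0.401, adjusted p = 4.95e-06), 2.70 in morulae (SE 0.401, adjusted p = 6.62e-06) and 3.30 in blastocysts (SE 0.412, adjusted p = 1.05e-06). The GV value was 0.82 with F9 and F10 alone as polysomes (adjusted p = 0.143) and 1.30 without transcriptome C (adjusted p = 0.0663).

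A higher level in polysomes than in the transcriptome did not place IRF1 in the heavy fractions. Its mean over F3 to F5, which the study regards as monosomes, was 541 and 361 CPM per gradient in 8-cell embryos, against 74.0 and 76.7 CPM over F8 to F10. In GV oocytes it was 357 and 295 CPM against 70.3 and 62.2 CPM, and in both gradients of MII oocytes, 2-cell embryos and morulae the lighter fractions also had the higher mean. In blastocysts the means were 78.5 against 78.9 CPM in gradient A and 3.6 against 91.4 CPM in gradient B. ISG15 showed the opposite at the 8-cell stage, with 28.3 and 34.1 CPM over F3 to F5 against 424 and 322 CPM over F8 to F10.

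**Figure D3:**
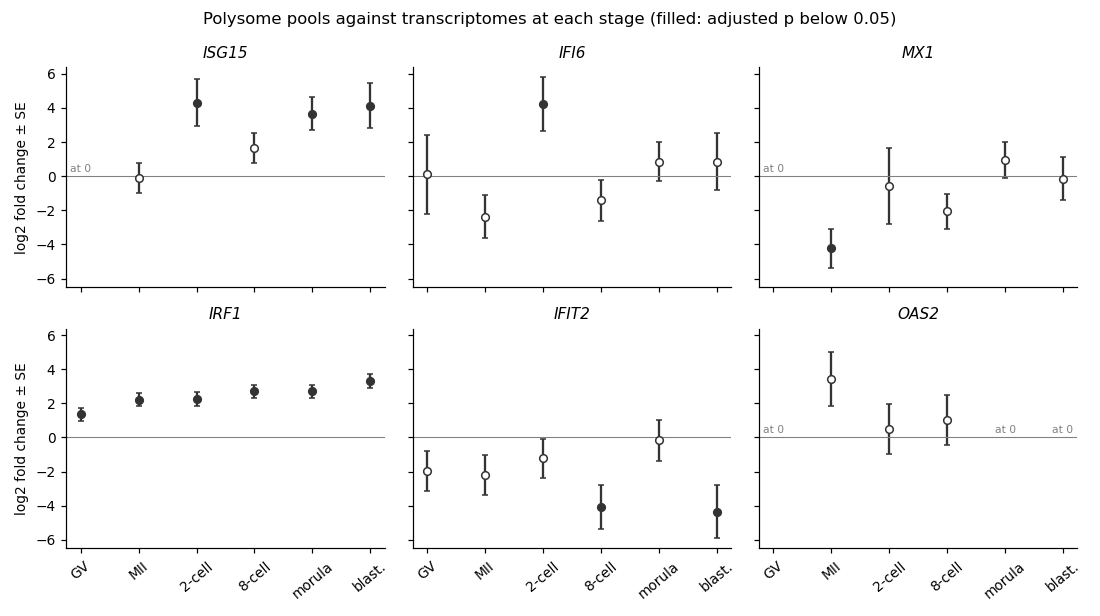
Log2 fold change of polysome pools over transcriptomes at each stage for 6 genes, with its SE as bars, filled points at an adjusted p below 0.05, and "at 0" where a group had no count. IRF1 is above 0 at all 6 stages (1.36 to 3.30), ISG15 is called higher at 3 stages, and IFIT2 is called lower in 8-cell embryos and blastocysts.

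The rest of the pathway was taken from lists of genes with known roles. Of 41 other interferon-stimulated genes tested, 11 rose and none fell in the transcriptome from GV to MII, and 11 fell and none rose from MII to the 2-cell stage. By the 8-cell stage, 27 rose and 3 fell, with a median of 3.81 (3.60 with empty groups at their bound), beside 26.6% of all genes rising. From 8-cell to morula, 16 fell and 2 rose, beside 7.75% and 6.60% of all genes. IFI27, a mitochondrial protein, went from at most 0.16 CPM in 2-cell embryos to 745, 296 and 105 CPM in 8-cell embryos (log2 11.77, SE 1.92, adjusted p = 2.11e-05). OAS1Y reached 430.1, 228 and 225 CPM there from at most 0.226 CPM (log2 11.39, SE 1.5, adjusted p = 2.34e-06). IFI44L reached 85.8, 76.1 and 97.6 CPM from a single count (ratio 3366, 604 to 132966, adjusted p = 7.84e-05). In polysomes 16 of the 41 rose from 2-cell to 8-cell and 8 fell, beside 21.0% and 25.2% of all genes. In 8-cell embryos 18 were lower and 7 higher in polysomes than in the transcriptome, beside 31.0% and 28.0%. PARP9 was at 46.9, 28.9 and 35.4 CPM in 8-cell transcriptomes and at 0 in both pools, at least 363-fold lower (adjusted p = 1.23e-07).

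Of 19 symbols of interferon ligands listed, 10 were in the table and 6 were tested. The level of those not in the table is not known. The summed transcriptome level of the 10 was 1.37 to 2.50 CPM in MII oocytes and 0.348 to 0.986 CPM in 8-cell embryos. These were the stages at which the summed level of the 9 genes was highest. The ligand sum was 8.68 to 16.0 CPM in morulae and 27.6 to 136 CPM in blastocysts, where the sum of the 9 genes was at most 47.4 CPM. From 2-cell to 8-cell none of the 6 rose and 1 was called lower, beside 26.6% and 23.5% of all genes. IFNL3, an interferon lambda, went from 0.228, 0.24 and 0.451 CPM to 0 (at least 1.17-fold lower, adjusted p = 0.0294), a call lost without replicate B or C (adjusted p = 0.0624 and 0.138). IFNT2, IFNT3 and IFN-tau-c1 rose from 8-cell to morula. IFNT, interferon tau, rose from 1.03, 3.22 and 1.94 CPM in morulae to 6.17, 42.9 and 20.4 CPM in blastocysts (log2 3.49, SE 1.21, adjusted p = 0.0468, but 0.31 without replicate C). The interferon tau genes are near-identical copies, so reads may have been split between them.

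Of 12 receptor and JAK-STAT genes, 6 rose and 2 fell from 2-cell to 8-cell, beside 26.6% and 23.5% of all genes. IFNAR2 rose from 0 to 8.05, 3.14 and 4.52 CPM (at least 22.6-fold, adjusted p = 0.00422, but 0.0568 without replicate C) and IRF9 by 3.46 (SE 0.584, adjusted p = 3.22e-05), while IFNGR1 and JAK1 fell. IFNGR2, a chain of the interferon gamma receptor, went from 0.456, 2.56 and 2.18 CPM to 44.0, 4.93 and 7.22 CPM (log2 3.43, SE 1.28, adjusted p = 0.0277), with replicate A far above the others, and the call was lost without replicate C (adjusted p = 0.124). Among the 12, 7 were lower in 8-cell polysomes than in the transcriptome and none was higher, beside 31.0% and 28.0% of all genes. IFNAR2 had no count in either pool (at least 51.3-fold lower, adjusted p = 0.00673), JAK2 differed by -8.58 on the log2 scale (SE 1.53, adjusted p = 5.30e-05) and STAT2 by -5.69 (SE 0.925, adjusted p = 1.65e-05). From morula to blastocyst IRF9 rose by 1.74 (SE 0.544, adjusted p = 0.0218, but 0.131 without replicate C).

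Of 9 inhibitors of the pathway, 2 rose and 5 fell from 2-cell to 8-cell, beside 26.6% and 23.5% of all genes. USP18, which removes ISG15 from proteins and blocks the receptor, rose from 2 counts to 65.2, 25.9 and 35.5 CPM (ratio 821, 227 to 6782, adjusted p = 0.000617). SOCS1, a JAK inhibitor, fell by 3.60 (SE 0.518, adjusted p = 3.79e-06). In 8-cell polysomes it was at 113 and 40.2 CPM against 0.257, 0.448 and 0.261 CPM in the transcriptome, higher by 7.86 (SE 0.594, adjusted p = 2.28e-10). SOCS3 was at 6.40 and 2.95 CPM in the pools against 2 counts in the transcriptomes (ratio 80.2, 22.2 to 663, adjusted p = 0.00237).

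Of 15 nucleic acid sensors and adaptors tested, 4 rose and 3 fell from 2-cell to 8-cell, near the 26.6% and 23.5% over all genes. IFIH1, the RNA sensor MDA5, rose from 0 to 26.0, 17.1 and 15.4 CPM (at least 84.4-fold, adjusted p = 1.20e-05), ZBP1, a sensor of Z-form nucleic acid, from 0 to 6.51, 4.75 and 4.44 CPM (at least 22.6-fold, adjusted p = 0.00785) and EIF2AK2, the kinase PKR, by 5.40 (SE 1.37, adjusted p = 0.0022). The calls of ZBP1 and EIF2AK2 were lost without replicate C (adjusted p = 0.07 and 0.063). IFIH1 had no count in the 8-cell pools, at least 191-fold below the transcriptome (adjusted p = 3.23e-05), and 6 of the 15 sensors were lower in polysomes there and 2 higher, beside 31.0% and 28.0% of all genes. Of 5 ISG15 conjugation enzymes, 3 rose and none fell from 2-cell to 8-cell: UBA7, the activating enzyme, by 5.72 (SE 1.29, adjusted p = 0.000833), HERC6 by 7.13 (SE 1.64, adjusted p = 0.00121) and HERC5 by 2.23 (SE 0.887, adjusted p = 0.0378, but 0.191 without replicate C). In 8-cell embryos 3 of the 5 were lower in polysomes than in the transcriptome and 1 was higher, beside 31.0% and 28.0%.

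The pathway lists also held 7 other interferon regulatory factors, the family of transcription factors to which IRF1 belongs. From 2-cell to 8-cell IRF3 alone rose (5.07, SE 0.321, adjusted p = 2.11e-11), beside 26.6% of all genes. IRF8 changed by -5.22 (SE 0.356, adjusted p = 5.46e-11). In 8-cell embryos 5 of the 7 were higher in polysomes than in the transcriptome and IRF2 was lower, beside 28.0% and 31.0%. IRF8 was at 229 and 156 CPM in pools against 5.83, 2.87 and 4.09 CPM (5.49, SE 0.371, adjusted p = 5.99e-11), and IRF7 at 153 and 116 CPM against 5.83, 5.91 and 4.26 CPM (4.66, SE 0.457, adjusted p = 1.17e-08).

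**Figure D4:**
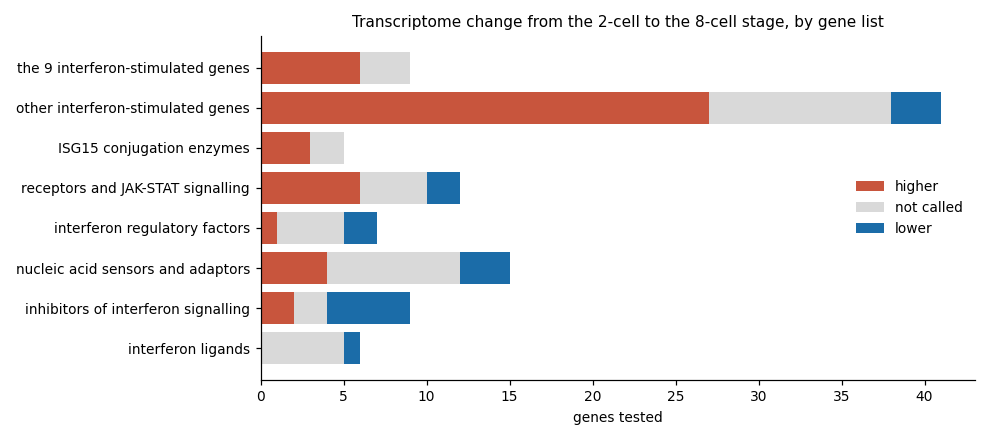
Number of genes in each list that were called higher (red), called lower (blue) or not called (grey) in the transcriptome from the 2-cell to the 8-cell stage, with the number of genes tested on the x axis. Of the 9 genes 6 are higher and none lower, and of 41 other interferon-stimulated genes 27 are higher and 3 lower, beside 26.6% higher over all genes.

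Markers of other cells were checked because cumulus cells surround the oocyte and blood cells respond to interferon. In the transcriptome, the summed level of 11 cumulus and granulosa markers rose and fell at the same steps as the 9 genes up to the morula. It was 35.0 to 46.5 CPM at GV, 297 to 393 CPM at MII, 104 to 115 CPM at 2-cell and 149 to 350.1 CPM at 8-cell. Morulae held 25.9 to 33.8 CPM and blastocysts 52.6 to 78.6 CPM. Unlike the sum of the 9 genes, it overlapped between MII and 8-cell, stayed above GV at 2-cell and rose to the blastocyst. Of 10 tested, 3 rose from GV to MII and 3 fell from MII to 2-cell (INHBA, TNFAIP6 and CYP11A1). Over all genes 6.61% rose and 5.96% fell at these steps. From 2-cell to 8-cell 6 rose and 1 fell (beside 26.6% and 23.5% of all genes), and 6 fell from 8-cell to morula (beside 7.75%). TNFAIP6, a matrix protein of the expanding cumulus, was at 82.0, 147 and 144 CPM in MII oocytes and 23.9, 29.6 and 34.7 CPM in 8-cell embryos, and at most 0.16 CPM in GV oocytes and 2-cell embryos. CYP11A1, which starts steroid synthesis, was at 12.9, 21.9 and 13.2 CPM in MII oocytes and 146, 51.1 and 61.3 CPM in 8-cell embryos. HAS2, which makes the hyaluronan of the cumulus matrix, took another course, at 169, 183 and 187 CPM in MII oocytes, 110.2, 103 and 98.5 CPM in 2-cell embryos and 44.9, 9.23 and 19.3 CPM in 8-cell embryos. It made up most of the 2-cell sum and was the marker called lower from 2-cell to 8-cell. FOXL2 was at 0 in MII transcriptomes. In MII oocytes replicate B, highest for 8 of the 9 genes, was also highest in the cumulus sum, and in 8-cell embryos replicate A was highest in both sums. In polysome pools the cumulus sum was 51.4 and 115 CPM in MII oocytes and 35.1 and 93.2 CPM in 8-cell embryos. The 3 markers with the largest called difference between 8-cell pools and transcriptomes were all lower in pools. INHBA, with 2 counts in the pools, was lower by a ratio of 248 (68.7 to 2049, adjusted p = 0.00211). HSD3B1 differed by -7.36 on the log2 scale (SE 1.29, adjusted p = 4.04e-05) and HAS2 by -3.47 (SE 1.1, adjusted p = 0.00992). The part of these cells in the levels of the 9 genes was not tested.

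In the transcriptome, the summed level of 10 leukocyte markers was lower at the 2 stages with high interferon-stimulated genes. It was 21.9 to 24 CPM in MII oocytes and 21.2 to 22.3 CPM in 8-cell embryos. GV oocytes held 39.9 to 44.1 CPM and 2-cell embryos 25.3 to 35.6 CPM. From 2-cell to 8-cell 2 of the 8 tested rose (CD68 and LYZ) and 2 fell (CD3E and CSF1R), near the 26.6% and 23.5% over all genes. CD68, a macrophage protein, went from 1 count to 1.54, 1.79 and 1.91 CPM (ratio 68.1, 12.2 to 2689.7, adjusted p = 0.00215). Of the 10 markers, 3 had no count in MII and 3 had none in 8-cell transcriptomes, with CD74 and TYROBP among them at both stages. In the pools the sum of the 10 markers was instead highest in MII oocytes, at 132 and 275 CPM. It was 97.9 and 102 CPM in GV oocytes, 94.3 and 120.1 CPM in 2-cell embryos and 18.9 and 51.9 CPM in 8-cell embryos.

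**Figure D5:**
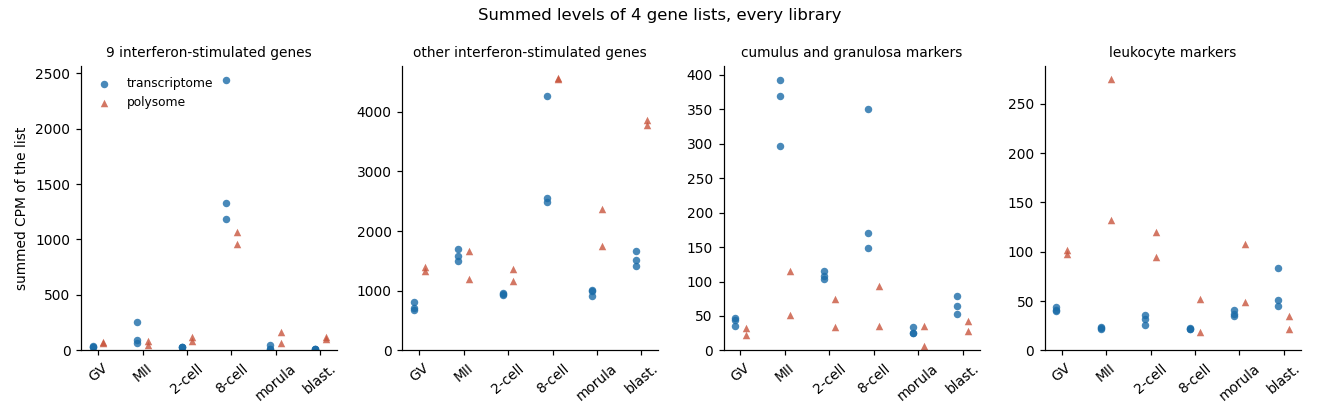
Summed level of 4 gene lists in every library by stage (CPM, each panel with its own linear axis from 0), with transcriptomes as blue circles and polysome pools as red triangles. The 9 genes and the cumulus and granulosa markers are both high in MII and 8-cell transcriptomes, and the leukocyte markers are at 21.2 to 24 CPM there.

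Across the 30 libraries, the genes most like ISG15 by Pearson's r of log2(CPM + 1) were ISG20 (0.962), TMEM176A (0.957) and TMEM176B (0.954). For MX1 they were OAS1Y (0.981), CSRP3 (0.976) and IFIT1 (0.957), for OAS1X IFI44L (0.968), ADGRE3 (0.958) and RTP4 (0.951), and for IFI6 MAP1LC3C (0.962), CSRP3 (0.96) and VIM (0.948). RSAD2 was most like REG4 (0.943), TNFAIP6 (0.885) and SRGN (0.816), IFIT2 like ADAMTS9 (0.893) and CCDC148 (0.885), and IRF1 most like USF1 (0.923), WDFY1 (0.918) and MRPL2 (0.917). Among the 9 genes r was 0.945 for MX1 and IFI6, 0.927 for ISG15 and IFI6, 0.889 for ISG15 and MX1 and -0.628 for IRF1 and RSAD2. These are descriptions over libraries that share stages and depths, led by the 8-cell and MII libraries.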

How the data were processed

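The authors prepared all libraries from the gradient fractions and whole oocytes or embryos with a Smart-seq kit and Nextera XT, estimated each gene's reads with Salmon against Ensembl's cattle gene models, and deposited the unnormalized expected counts of 138 libraries in 1 table. Of its values 11.7% are not whole numbers. The submitters' processing notes name Salmon, edgeR and the build UMD3.1, and the study's methods another bovine assembly; no coordinates are given here. Salmon's version is not given in the sources used here. Columns were matched to samples by stage, fraction and letter, and 0 columns were left unmapped. No identical libraries were found in 78 pairs compared.

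Counts of F8 to F10 were summed per gradient and rounded. One edgeR 4.0.16 model (R 4.3.3, limma 3.58.1) of 30 libraries in 12 groups used TMM factors, filterByExpr and the quasi-likelihood F test, with Benjamini-Hochberg adjustment over 14612 genes, for 21 comparisons. The study names the likelihood ratio test, kept as an alternative beside DESeq2 1.42.0. Computation used Python 3.11.15, numpy 2.4.6, pandas 2.3.3 and scipy 1.17.1. Levels of 0 allow up to 3 counts per library, and floors and intervals cover counting error only. Replicates are separate libraries of a stage. The study calls its gradient replicates biological and took the transcriptome pools from the same batches as the gradients. Whether each replicate had its own culture is not given, so p-values measure the spread between these libraries. The 9 genes and the lists were chosen with earlier results of these data known. All 9 are named, and from each other list up to 3 genes with the largest change among those called from 2-cell to 8-cell and from morula to blastocyst in the transcriptome, and between polysomes and transcriptome at the 8-cell stage. Other genes are named as list members counted in the text. For each gene reaching 5 CPM in a group, the 3 most alike are named. Some genes these rules name are not reported here. On simulated data, known changes were planted in genes expected at 5 CPM or more without a change. The 2-cell to 8-cell transcriptome test (14234 genes) recovered 54% of changes of 2 and 97% of changes of 4 on the log2 scale. The polysome test (14334 genes) recovered 24% and 77%. Among the 9 genes only IFIT2 and IRF1 had such a mean in 2-cell transcriptomes, and only IRF1 in 2-cell pools. The rates do not describe the others. There were 12 alternatives: other tests (likelihood ratio, DESeq2), scaling (RLE factors, CPM without TMM), no filter, only the groups compared, a replicate block, F9 and F10 alone as polysomes, a pseudocount of 0.1 and leaving out each letter. Gene sequences were not used here.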

Additional observations from a re-analysis of the deposited data

Results flagged for a closer look

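The change in polysomes and the change in the transcriptome differed for 2 genes. For OAS2 the difference from GV to MII was 11.2 on the log2 scale (SE 2.73, adjusted p = 0.00965). Polysome pools went from 0 and 0 to 2.92 and 2.72 CPM, and the transcriptome from 1.37, 2.15 and 1.01 CPM to 0, 0.405 and 0.357 CPM. The call was lost without replicate C (11.86, adjusted p = 0.064). For OAS1X the difference from 8-cell to morula was 11.16 (SE 2.93, adjusted p = 0.0193). Its transcriptome fell from 34.2 to 93.1 CPM to at most 2.05 CPM, and its pools held no count but 12 in gradient B of the morula. The call was lost without replicate B (6.05), with F9 and F10 alone as polysomes (6.35), with DESeq2 (adjusted p = 0.0845) and with only the groups compared (adjusted p = 0.128). Both fitted differences rest on groups without a count, depend on the prior count and are no bounds.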

How the results depend on the processing

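Of 62 calls on the 9 genes, 31 held under every alternative and 37 without each letter in turn. Calls lost numbered 0 with RLE factors, the likelihood ratio test or no filter, 3 with DESeq2 and 7 with F9 and F10 summed. They numbered 14 with only the groups compared and 22 without replicate C. Leaving out A or B left 1 pool per stage, so the spread in those fits came from transcriptomes alone. Call counts without A or B are therefore not like those of the other fits. Leaving out C removed no pool, so calls between pools lost there turned on the shared spread, not on a pool. Over all genes in the fit, pools and transcriptomes of the same letter did not deviate alike (r from -0.0687 to 0.0355). Of the 9 genes, 8 were highest in replicate B of MII transcriptomes and 4 in B of MII pools. In morulae 6 were highest in B of the transcriptomes and 5 in B of the pools. Whether letters pair the libraries for these genes was not tested. With the replicate block 4 calls were lost and 1 was gained. Lost were IFIT2 in polysomes from 2-cell to 8-cell (-3.40) and in the transcriptome from 8-cell to morula (-3.51). The others were OAS2 in morula polysomes against transcriptome (-5.52) and RSAD2 in polysomes from GV to MII (8.11).

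Signs reversed when a letter was left out, with these lowest and highest values. OAS2 in 8-cell polysomes against transcriptome ranged over -7.29 (without B) to 1.77. In polysomes from 2-cell to 8-cell OAS2 ranged over -8.50 (without B) to 2.05. Its difference from 2-cell to 8-cell ranged over -8.69 (without B) to 1.99. MX1 in morula polysomes against transcriptome ranged over -5.32 (without B) to 1.35. IFIT2 in polysomes from 8-cell to morula ranged over -3.78 (without A) to 3.69. The OAS2 change in polysomes from 8-cell to morula ranged over -9.63 to 0.0 (without B). There neither group held a count without B, so the change vanished and no sign was reversed. Calls without 1 letter ranged, from GV to blastocyst, over 1 to 3, 4 to 7, 2 to 4, 4 to 9, 2 to 5 and 1 to 3 for polysomes against transcriptome. From GV to MII onwards they ranged over 4 to 7, 4 to 7, 4 to 6, 4 to 7 and 0 to 2 for transcriptome changes, 1 to 6, 1 to 4, 3 to 5, 3 to 5 and 0 to 2 for polysome changes, and 0 to 1, 0 to 2, 0 to 3, 1 to 4 and 0 to 0 for differences.

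Counts otherwise moved as follows. The likelihood ratio test gave 5 calls in morula and 6 in blastocyst polysomes against transcriptome, 1 in the transcriptome from morula to blastocyst, and differences of 1, 1 and 2 for the 3 transitions from MII to morula. DESeq2 gave 1, and differences of 1 and 1 up to the 8-cell stage. F9 and F10 summed gave 1 in GV polysomes against transcriptome, 1 in polysomes from morula to blastocyst, and differences of 1 and 0 from 2-cell and from 8-cell on. With only the groups compared there were 1 and 1 for morula and blastocyst polysomes against transcriptome, 0, 1 and 0 for polysome changes from GV, MII and 8-cell on, and differences of 1, 2 and 0 from MII, 2-cell and 8-cell on. The causes were not tested. With DESeq2, 49.6% of all calls from GV to MII in the transcriptome were higher, against 38.7%. Medians of all genes moved by over 0.1 with RLE factors, in 8-cell polysomes against transcriptome from -0.26 to -0.50. Of 21 most-alike genes, 14 were kept with a pseudocount of 0.1. On simulated data, changes of 1 on the log2 scale were planted in genes expected at 5 CPM or more. They were recovered in 2% to 6% of these genes from 2-cell to 8-cell and in 8-cell polysomes against transcriptome at these depths.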
